A study of Mus musculus with 10 samples.

Results

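The luminal progenitor genes described here are Kit, Cd14, Aldh1a3, Ltf, Lcn2, Elf3, Ehf, Sox9 and Tfcp2l1, 9 of the 55487 genes in the count tables. They were taken by name, as genes known to mark the progenitor cells of the luminal layer of the mammary epithelium. RNA was sequenced in bulk from mammary epithelial cells (MECs) and from macrophages of the mammary gland of female BALB/c mice, 10 weeks of age and in diestrus. The CebpbΔM mice carried Csf1r-iCre and 2 floxed Cebpb alleles (Cebpb fl/fl), and the labels call them "C/EBPb knockdown". The WT controls were Cre-negative Cebpb fl/fl mice, so both genotypes carried the floxed alleles and the controls did not carry Cre. Csf1r-iCre acts in CSF1R-expressing myeloid cells and not in macrophages alone, and the MECs were not the target of the deletion. MECs were obtained by collagenase digestion, differential centrifugation and negative selection against lineage markers, and macrophages by positive selection for F4/80. There were 2 WT and 2 CebpbΔM MEC libraries (replicates 1 and 3 of each), 2 WT macrophage libraries (replicates 4 and 5) and 4 CebpbΔM macrophage libraries (replicates 4, 5, 6 and 7). No source used here says that each library came from a separate mouse, so the p-values measure the spread between these libraries. Isolation method and cell type cannot be told apart in any comparison of macrophage with MEC libraries.

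Luminal progenitors are the cells of the mammary duct that proliferate and give rise to the milk-producing alveolar cells. They are distinguished from mature hormone-sensing luminal cells by the receptor tyrosine kinase KIT, by aldehyde dehydrogenase activity and by a set of innate defence genes, and they depend on epithelial transcription factors of the ETS and SOX families. Several of the same genes also have a known role outside the epithelium. CD14 is a classical monocyte and macrophage surface protein, KIT is carried by mast cells, and lactoferrin and lipocalin-2 are granule proteins of neutrophils. The libraries of the F4/80-selected cells therefore matter for reading these genes as much as the MEC libraries do.

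The factor deleted in the CebpbΔM mice, C/EBPβ, binds sites that hold the letters TTGCNNAA, so the promoters of the 9 genes were searched for them. RefSeq promoters of the GRCm38.p6 assembly were at hand for 5 of the 9 genes (Kit, Ltf, Lcn2, Elf3 and Tfcp2l1), and the 250 bases before the RefSeq start were searched on both strands. The letters were present in 2 of the 5, Lcn2 and Ltf, and in 9.56% of all 32851 promoters over the same length. The matches are shown in capitals with 10 bases on each side, because these are the genes of the set whose promoters hold the letters of the deleted factor.
Lcn2, chr2:32387938-32387965, minus strand: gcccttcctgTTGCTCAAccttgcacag
Ltf, chr9:111019207-111019234, plus strand: ggcaggcctaTTGGGCAAtagggtgggg
The Ltf match is on the opposite strand, so that it appears as TTNNGCAA in the letters shown. The first base of the match lay 216 bases before the RefSeq start of Lcn2 and 75 bases before that of Ltf. These starts are not the first bases of the genes as counted. That of Lcn2 is 513 bases inside the counted gene, so that the stretch shown for Lcn2 is itself inside it, and that of Ltf is 21 bases inside, with the stretch shown before the gene. The 250 bases before the start of Tfcp2l1 are given whole, because this gene had the lowest CebpbΔM to WT ratio of the 9 in macrophage libraries. They hold no TTGCNNAA, and the capitals mark a TATA box (TATAAA, searched on both strands and present in 12.4% of all promoters), which begins 28 bases before the start.
Tfcp2l1, chr1:118627695-118627944, plus strand: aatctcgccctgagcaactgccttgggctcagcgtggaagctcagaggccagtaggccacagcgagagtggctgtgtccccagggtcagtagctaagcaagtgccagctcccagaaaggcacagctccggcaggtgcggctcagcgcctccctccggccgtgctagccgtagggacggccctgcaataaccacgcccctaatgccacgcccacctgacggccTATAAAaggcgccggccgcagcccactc
The grainyhead letters AACCGGTT, searched for the grainyhead relative Tfcp2l1, were in 0 of the 5 promoters and in 0.116% of all. A match is a run of letters in this window and was not tested as a binding site.

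The MEC libraries held 25310926 to 27008166 counts and the macrophage libraries 16935000 to 20174722, so that 3 counts correspond to 0.111 to 0.119 CPM (counts scaled to a common library size) in MECs and to 0.149 to 0.177 CPM in macrophages. The lowest count of any of the 9 genes in any library was 266, for Tfcp2l1 in CebpbΔM macrophage replicate 4. Cebpb itself did not check the labels. It was counted 25 and 28 times in WT MECs and 69 and 42 times in CebpbΔM MECs, and 13 and 15 times in WT macrophages against 16, 13, 5 and 4 times in CebpbΔM macrophages. The macrophage libraries carried macrophage RNA together with much epithelial RNA. The summed level of 10 macrophage marker genes was 42.0 to 65.1 CPM in MECs, 7553 to 8145 CPM in WT macrophages and 9175 to 13951 CPM in CebpbΔM macrophages. The summed level of 10 epithelial marker genes, which include the keratins Krt8, Krt18 and Krt19, was 30975 to 38506 CPM in MECs, 10309 to 10429 CPM in WT macrophages and 5520 to 7015 CPM in CebpbΔM macrophages. RNA of other cell types was there too. The 4 endothelial marker genes summed to 51.5 to 74.7 CPM in MECs and 565 to 1275 CPM in macrophage libraries. All 4 were called higher in macrophage than in MEC libraries in both genotypes (14.8% of all tested genes in WT and 18.9% in CebpbΔM mice). The 5 fibroblast marker genes summed to 4399 to 5343 CPM in MECs and 2396 to 5173 CPM in macrophage libraries. The part of these cells in the differences between cell types was not tested. Fewer cells of a type and less RNA per cell cannot be told apart in these bulk libraries.

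The levels of the 9 genes in WT MECs spanned a wide range once scaled to exon length. In CPM per kilobase (TMM-scaled over all 10 libraries), Ltf was at 317 ± 160 (SD, n = 2), Lcn2 at 286 ± 66.4 and Sox9 at 271 ± 74.2, followed by Elf3 at 220 ± 11.5. Neighbours among these 4 genes overlapped in range over the 2 libraries, so their order was in part not resolved. Lcn2 (239 to 333) lay above Elf3 (212 to 228) without overlap. Cd14 at 182 ± 28.7 and Aldh1a3 at 108 ± 10.6 CPM per kilobase stood apart from their neighbours in the order. Ehf at 23.4 ± 2.30 and Kit at 22.2 ± 1.16 overlapped each other, and Tfcp2l1 was the lowest at 6.40 ± 1.40. In WT macrophage libraries the order was different. Cd14 led at 324 ± 61.6 CPM per kilobase (SD, n = 2), Sox9 was at 98.9 ± 21.8, and Tfcp2l1 was again the lowest at 5.0 ± 0.188. In the 4 CebpbΔM macrophage libraries Cd14 was at 450 ± 26.1 CPM per kilobase (SD, n = 4) and Sox9 came next at 78.3 ± 25.9, with the ranges of Sox9, Elf3, Lcn2, Ltf, Ehf, Kit and Aldh1a3 each overlapping the next and Tfcp2l1 last at 2.07 ± 0.783.

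**Figure D1:**
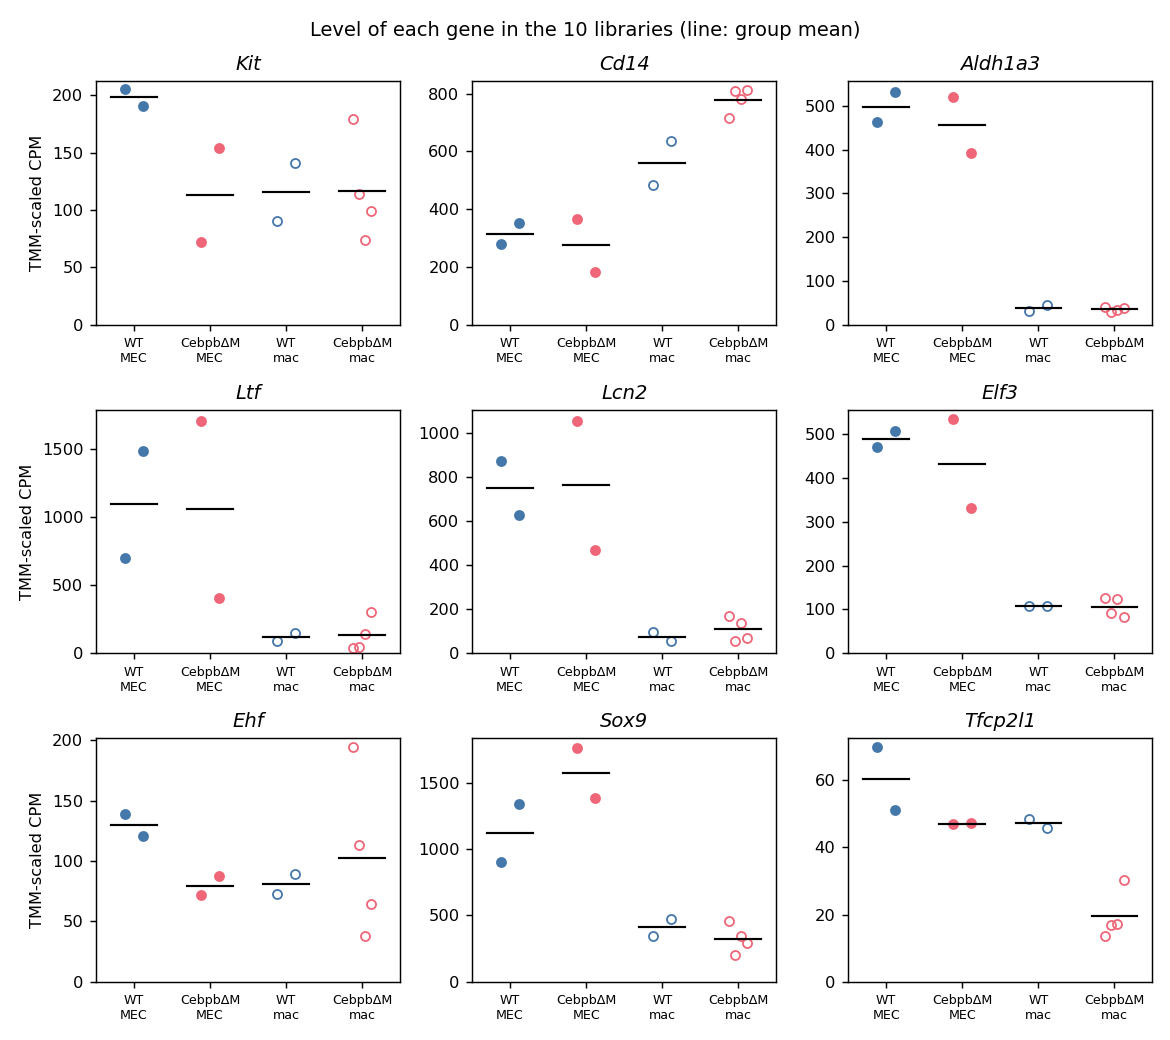
Each panel plots 1 gene, with TMM-scaled CPM from 0 on the vertical axis and the 4 groups on the horizontal axis, where a point is a library (filled for MECs, open for macrophages, blue for WT, red for CebpbΔM) and the black line is the group mean. Aldh1a3, Ltf, Lcn2, Elf3 and Sox9 were high in MECs and low in macrophage libraries, Cd14 was at 485 to 812 CPM in macrophage libraries against 182 to 367 CPM in MECs, and Tfcp2l1 was between 13.6 and 30.3 CPM in CebpbΔM macrophages against 45.9 and 48.4 CPM in WT macrophages.

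Between genotypes, none of the 9 genes passed the test in either cell type. With edgeR's quasi-likelihood test and Benjamini-Hochberg adjustment over all genes, 0 of 9 were called in MECs, where 8 of 15698 tested genes were called (0.051%). Of those 8, 7 were higher in CebpbΔM (0.0446%) and 1 was lower (0.00637%), and with RLE scaling in place of TMM 6 were higher and 0 lower. At an unadjusted p under 0.05, 2 of the 9 genes (Kit and Ehf) passed, against 5.42% of all tested genes, and the likelihood ratio test and DESeq2 each called 0 of 9 (1.14% and 1.03% of all tested genes). In macrophages 0 of 9 were called, and 0 of 17772 genes (0%). There 2 of the 9 (Tfcp2l1 and Cd14) had an unadjusted p under 0.05, against 8.63% of all tested genes, and the likelihood ratio test and DESeq2 each called 1 of 9, Tfcp2l1 (0.777% and 1.13% of all tested genes). The CebpbΔM and WT libraries did not overlap for 4 of the 9 genes in MECs (Kit, Ehf, Sox9 and Tfcp2l1, against 28.2% of all tested genes) and for 2 of the 9 in macrophages (Tfcp2l1 and Cd14, against 18.5%). The median log2 fold change of the 9 was -0.16 in MECs, where that of all tested genes was -0.01, and -0.01 in macrophages, where that of all tested genes was 0.00.

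**Figure D2:**
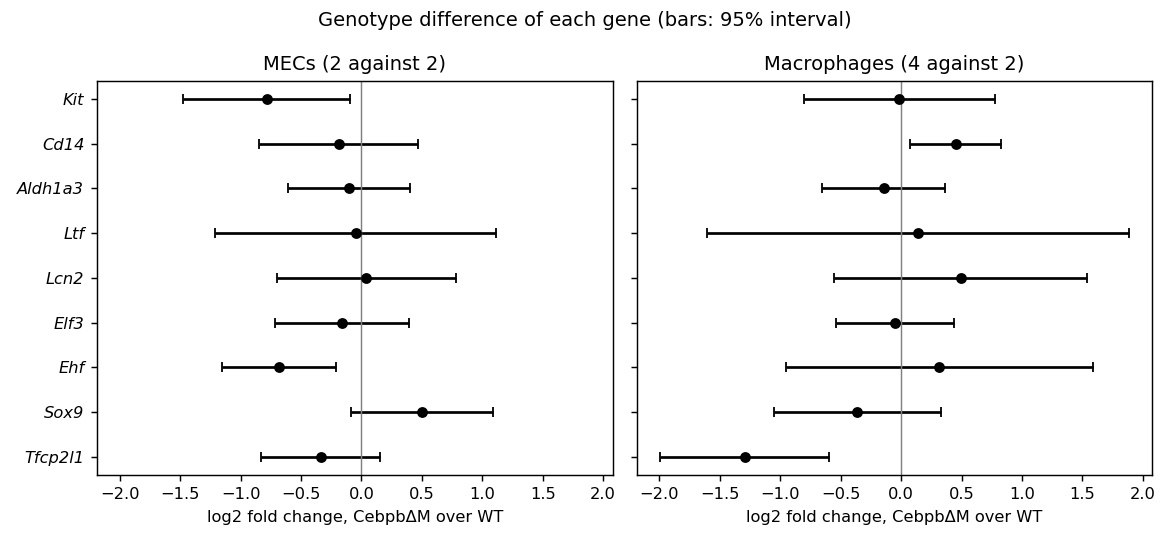
Log2 fold change of CebpbΔM over WT for each gene in MECs (left, 2 libraries against 2) and in macrophages (right, 4 against 2), on a common horizontal axis, where bars are 95% intervals from the quasi-likelihood fit and the grey line marks no change. The interval lies wholly below 0 for Kit and Ehf in MECs and for Tfcp2l1 in macrophages, and wholly above 0 for Cd14 in macrophages, before any adjustment for the number of genes.

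Among the receptors, Kit (ENSMUSG00000005672, chr5:75574916-75656722, plus strand, GRCm38) encodes the receptor of stem cell factor. Its level was 206 and 191 CPM in WT MECs and 72.2 and 154 CPM in CebpbΔM MECs. Both CebpbΔM libraries were below both WT libraries, and they differed from each other more than the WT libraries did. The log2 fold change was -0.78 ± 0.31 (SE, n = 2 and 2, adjusted p = 0.749). The result depended on 1 library. Without CebpbΔM MEC replicate 3 the log2 fold change was -1.46 with an adjusted p of 0.00344, and without CebpbΔM MEC replicate 1 it was -0.32. Each of these fits has a single CebpbΔM library, which is assumed to vary like the 2 WT libraries. In macrophage libraries Kit was at 90.4 and 141 CPM in WT and at 180, 114, 74.0 and 98.9 CPM in CebpbΔM (replicates 4 to 7). The WT values lay within the CebpbΔM range, and the log2 fold change was -0.01 ± 0.34 (SE, n = 4 and 2, adjusted p = 0.998). Mast cells, which also carry KIT, had left RNA in the macrophage libraries. The 8 mast cell marker genes summed to 182 to 194 CPM in WT and 110 to 187 CPM in CebpbΔM macrophages, and to 5.61 to 8.90 CPM in MECs. All 6 that were tested were called higher than in MECs in both genotypes (14.8% of all tested genes in WT and 18.9% in CebpbΔM mice). Most of the sum in macrophage libraries came from Hdc (60.3 to 132 CPM), the histidine decarboxylase gene, and the part of mast cells in the Kit values was not tested.

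Cd14 (ENSMUSG00000051439, chr18:36725067-36726798, minus strand) encodes a co-receptor that hands bacterial lipopolysaccharide to TLR4, and it is present on luminal progenitors as well as on macrophages. In MECs its level was 280 and 351 CPM in WT and 367 and 182 CPM in CebpbΔM. The CebpbΔM libraries spanned the WT values, with a log2 fold change of -0.19 ± 0.30 (SE, adjusted p = 0.9997). In macrophage libraries it was at 485 and 636 CPM in WT and at 715, 809, 781 and 812 CPM in CebpbΔM. All 4 CebpbΔM libraries were above both WT libraries. The log2 fold change was 0.45 ± 0.17 (SE, n = 4 and 2, adjusted p = 0.528). All 10 macrophage marker genes also had a positive log2 fold change in the same comparison, with a median of 0.60. Of the 10, 6 were without overlap between the groups (18.5% of all tested genes), among them the complement gene C1qa at 0.79 ± 0.21 (SE, adjusted p = 0.461). With the epithelial marker level of each library in the fit, the log2 fold change of Cd14 was 0.15 (adjusted p = 0.889). That level (mean log2 CPM) was 9.10 and 8.80 in the WT and 8.63, 8.24, 8.10 and 8.37 in the CebpbΔM macrophage libraries. The genotypes did not overlap in it, so this fit cannot cleanly part it from genotype. The same limit holds for each value below with this level in the fit. The part of the macrophage content in the Cd14 values was not tested.

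Aldh1a3 (ENSMUSG00000015134, chr7:66390890-66427517, minus strand) encodes a retinaldehyde dehydrogenase, the enzyme behind much of the aldehyde dehydrogenase activity of luminal progenitors. Its level was 463 and 532 CPM in WT MECs and 521 and 392 CPM in CebpbΔM MECs. In macrophage libraries it was at 32.0 and 45.8 CPM in WT and at 40.8, 29.2, 33.7 and 39.5 CPM in CebpbΔM. The genotypes overlapped in both cell types, with log2 fold changes of -0.11 ± 0.23 in MECs (SE, adjusted p = 0.9997) and -0.15 ± 0.22 in macrophages (SE, adjusted p = 0.910). The 95% intervals ran from -0.61 to 0.40 and from -0.66 to 0.37.

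The 2 secreted defence proteins varied widely among CebpbΔM MEC libraries. Ltf (ENSMUSG00000032496, chr9:111019271-111042767, plus strand) encodes lactoferrin, an iron-binding protein of milk and of neutrophil granules. It was at 701 and 1483 CPM in WT MECs and at 1703 and 407 CPM in CebpbΔM MECs, and at 90.0 and 147 CPM in WT macrophages and 35.7, 49.5, 143 and 302 CPM in CebpbΔM macrophages. The CebpbΔM libraries were both the highest and the lowest in each cell type. The log2 fold changes were -0.05 ± 0.53 in MECs (SE, adjusted p = 0.9997) and 0.14 ± 0.76 in macrophages (SE, adjusted p = 0.982), and without CebpbΔM macrophage replicate 7 the latter was -0.67. Lcn2 (ENSMUSG00000026822, chr2:32384633-32388252, minus strand) encodes lipocalin-2, which binds bacterial siderophores and so withholds iron. It was at 872 and 626 CPM in WT MECs and at 1057 and 469 CPM in CebpbΔM MECs. In macrophage libraries it was at 95.6 and 56.1 CPM in WT and at 169, 56.3, 138 and 70.6 CPM in CebpbΔM. The groups overlapped in both cell types, with log2 fold changes of 0.04 ± 0.34 in MECs (SE, adjusted p = 0.9997) and 0.49 ± 0.45 in macrophages (SE, adjusted p = 0.825), the latter being 1.28 with the epithelial marker level in the fit (adjusted p = 0.634). CebpbΔM MEC replicate 1 had the highest Ltf and Lcn2 of all libraries and the lowest Kit. In the macrophage libraries Ltf was highest in CebpbΔM replicate 7, where Lcn2 was not.

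Neutrophils are another known source of both proteins, and their marker genes were at low levels in all libraries. The neutrophil surface gene Ly6g was at 0 counts in all 10 libraries. S100a8 was at most 0.502 CPM and S100a9 at most 0.923 CPM in the macrophage libraries, where their proteins would be among the most abundant of neutrophils. The 11 neutrophil marker genes summed to 25.7 to 43.9 CPM in macrophage libraries, most of it from the receptor gene Csf3r (17.2 to 41.0 CPM), and to 1.09 to 1.30 CPM in MECs. Of the 3 tested, Csf3r and Retnlg (0.602 to 5.84 CPM in macrophage libraries) were called higher than in MECs in both genotypes. Both were counted 0 to 2 times in MECs. Of all tested genes 14.8% were called higher in WT and 18.9% in CebpbΔM mice. The part of neutrophils in the Ltf and Lcn2 values was not tested.

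Of the 4 transcription factors, the epithelial ETS factors Elf3 and Ehf had different values in MECs. Elf3 (ENSMUSG00000003051, chr1:135253575-135258568, minus strand) was at 470 and 505 CPM in WT MECs and at 533 and 330 CPM in CebpbΔM MECs. In macrophage libraries it was at 108 and 107 CPM in WT and 127, 91.5, 123 and 81.6 CPM in CebpbΔM. The groups overlapped in both cell types (log2 fold change -0.16 ± 0.25 in MECs and -0.05 ± 0.21 in macrophages, SE). Elf3 overlaps Gm26642 on the opposite strand, which was counted 3337 to 5247 times in MECs and 1185 to 1834 times in macrophages. No source used here says whether the library kit kept strand, so reads of these genes may not be separated and the Elf3 values are uncertain to that extent.

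Ehf (ENSMUSG00000012350, chr2:103263433-103303278, minus strand) was at 139 and 121 CPM in WT MECs and at 71.6 and 87.7 CPM in CebpbΔM MECs. Both CebpbΔM libraries were below both WT libraries, and the log2 fold change was -0.69 ± 0.21 (SE, n = 2 and 2, adjusted p = 0.418). It kept its sign without each MEC library in turn, between -0.87 and -0.52. In macrophage libraries Ehf was at 72.9 and 89.0 CPM in WT and at 194, 113, 37.8 and 64.5 CPM in CebpbΔM, and the CebpbΔM libraries lay on both sides of the WT libraries. The log2 fold change was 0.32 ± 0.55 (SE, n = 4 and 2, adjusted p = 0.922), and without CebpbΔM macrophage replicate 4 it was -0.19. With the epithelial marker level of each library in the fit it was 1.68 (adjusted p = 0.545). Kit and Ehf had the same order in the CebpbΔM macrophage libraries, highest in replicate 4, then in replicates 5 and 7, and lowest in replicate 6. The basal and myoepithelial genes were also highest in CebpbΔM replicate 4, with a sum of 3610 CPM against 987 to 2472 CPM in the other CebpbΔM and 1123 and 1536 CPM in the WT macrophage libraries. So were other luminal and alveolar progenitor genes (5308 CPM against 2795 to 4657 CPM in the other macrophage libraries). The ETS, grainyhead and CP2 relatives (265 against 139 to 188 CPM) and the SoxE relatives of Sox9 (42.0 against 12.4 to 21.0 CPM) were too. Elf5 is in both the progenitor and the ETS list, so these 2 sums are not separate observations. It was at 112 CPM in CebpbΔM replicate 4 and at 21.3 to 46.6 CPM in the other macrophage libraries, and so weighed heavily in the ETS sum. Not all lists were highest in CebpbΔM replicate 4, and the hormone-sensing luminal genes were lowest there, at 841 CPM. The part of these lists in the Kit and Ehf values was not tested.

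Sox9 (ENSMUSG00000000567, chr11:112782224-112787760, plus strand) encodes a SOX factor of luminal progenitors and of stem cells in many epithelia. It was at 904 and 1338 CPM in WT MECs and at 1760 and 1385 CPM in CebpbΔM MECs, and the CebpbΔM libraries were above the WT libraries by a small margin. The log2 fold change was 0.50 ± 0.27 (SE, n = 2 and 2, adjusted p = 0.9997). In macrophage libraries Sox9 was at 345 and 473 CPM in WT and at 456, 201, 347 and 291 CPM in CebpbΔM, which overlapped, with a log2 fold change of -0.36 ± 0.30 (SE, n = 4 and 2, adjusted p = 0.796), or -0.04 with the epithelial marker level in the fit.

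Tfcp2l1 (ENSMUSG00000026380, chr1:118627945-118685168, plus strand) encodes a CP2-family factor, related to the grainyhead proteins, that is expressed in secretory and duct epithelia. It was at 69.7 and 51.0 CPM in WT MECs and at 46.8 and 47.3 CPM in CebpbΔM MECs, without overlap and with a log2 fold change of -0.34 ± 0.22 (SE, n = 2 and 2, adjusted p = 0.9997). In macrophage libraries it was at 48.4 and 45.9 CPM in WT and at 13.6, 17.0, 17.3 and 30.3 CPM in CebpbΔM. All 4 CebpbΔM libraries were below both WT libraries, and replicate 7 was the nearest to them. The log2 fold change was -1.30 ± 0.30 (SE, n = 4 and 2, 95% interval -1.99 to -0.60), which did not pass the quasi-likelihood test (adjusted p = 0.452) and did pass the likelihood ratio test (adjusted p = 0.0256) and DESeq2 (adjusted p = 0.0258). Without each macrophage library in turn it was between -1.59 and -1.16. Between WT macrophages and WT MECs its log2 fold change was -0.36 ± 0.33 (SE), where those of the 10 epithelial marker genes had a median of -1.77 and ran from -2.72 to -0.34, the last for the splicing factor Esrp1.

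The epithelial marker genes had the same sign as Tfcp2l1 between genotypes in macrophages. All 10 epithelial marker genes had a negative log2 fold change, with a median of -0.70 and a range of -0.95 to -0.11. Of the 10, 4 did not overlap, against 18.5% of all tested genes. Krt8 was at -0.89 ± 0.14 (SE, adjusted p = 0.452) and Krt18 at -0.82 ± 0.15 (SE, adjusted p = 0.452), and 0 of 10 were called by the quasi-likelihood test. There 5 of 10 had an unadjusted p under 0.05, against 8.63% of all tested genes. The likelihood ratio test and DESeq2 each called 2 of 10 (0.777% and 1.13% of all tested genes). With the mean epithelial marker level of each library in the fit, the log2 fold change of Tfcp2l1 was -1.42 (adjusted p = 0.560), with the limit given for Cd14. The basal and myoepithelial genes went the other way, with 10 of 10 positive and a median of 0.83. However, 0 of 10 were without overlap, and their sum in CebpbΔM replicate 7 (987 CPM) was below both WT libraries (1536 and 1123 CPM). Of 10 hormone-sensing luminal genes 1 was positive, with a median of -0.55, and 2 did not overlap (18.5% of all tested genes). None of the latter 20 genes was called.

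**Figure D3:**
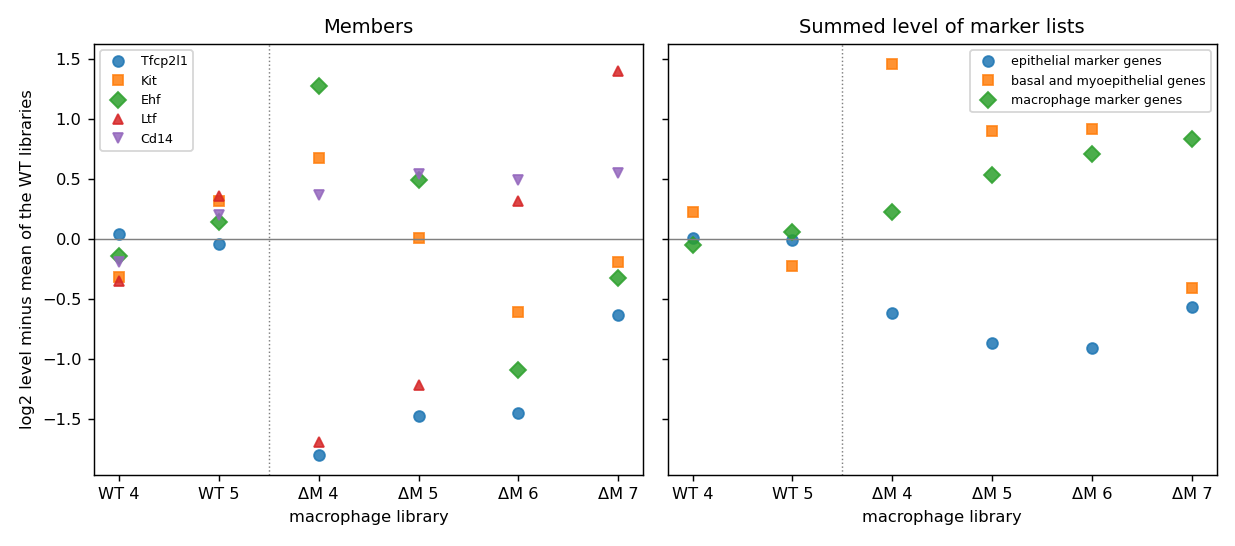
Log2 level in each macrophage library minus the mean log2 level of the 2 WT libraries, for 5 of the genes (left) and for the summed levels of 3 marker lists (right), and the dotted line parts WT from CebpbΔM libraries. Tfcp2l1 lies below 0 in all 4 CebpbΔM libraries, Cd14 above 0, and Kit, Ehf and Ltf on both sides, while the epithelial marker sum lies below 0 and the macrophage marker sum above 0 in all 4.

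The genotype differences were compared between the cell types in a fit of all 10 libraries. Of the 9 genes 0 were called, with 0 of 9 at an unadjusted p under 0.05 and 0 of 9 by the likelihood ratio test and by DESeq2 (0.289% and 0.153% of all tested genes), and of 18323 genes tested 0 were called (0%, and 5.19% at an unadjusted p under 0.05). The largest values were -1.05 ± 0.74 for Ehf, 0.91 ± 0.44 for Tfcp2l1, 0.83 ± 0.46 for Sox9 and -0.82 ± 0.56 for Kit (log2 fold change in MECs minus that in macrophages, SE). The 95% interval ran from -0.05 to 1.87 for Tfcp2l1 and from -2.68 to 0.58 for Ehf. The genotype differences were thus not shown to differ between cell types for any of the 9 genes, and apart from those of Aldh1a3 and Elf3 the intervals reached past 1 or -1.

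Between cell types, 5 of the 9 genes were lower in WT macrophage than in WT MEC libraries and none was higher, where 10.7% of 18323 tested genes were called lower and 14.8% higher. All 9 were without overlap, against 65.1% of all tested genes. Aldh1a3 was 12.8-fold lower (log2 fold change -3.68 ± 0.27, SE, adjusted p = 4.69e-06), Lcn2 9.88-fold lower (-3.30 ± 0.57, adjusted p = 0.0018) and Ltf 9.22-fold lower (-3.20 ± 0.98, adjusted p = 0.0343). Elf3 was 4.53-fold lower (-2.18 ± 0.28, adjusted p = 0.000269) and Sox9 2.74-fold lower (-1.45 ± 0.35, adjusted p = 0.0118). The remaining genes did not pass the test. Kit was at -0.78 ± 0.42 (adjusted p = 0.204), Ehf at -0.69 ± 0.56 (adjusted p = 0.401), Tfcp2l1 at -0.36 ± 0.33 (adjusted p = 0.466) and Cd14 at 0.83 ± 0.29 (adjusted p = 0.0593, 0.0342 by the likelihood ratio test, and 0.0144 and 0.0145 without CebpbΔM MEC replicate 1 and 3, which enter the same fit). The call of Ltf was lost without any of the 4 WT libraries (-3.65 to -2.57, adjusted p between 0.0540 and 0.157), and that of Sox9 without WT MEC replicate 3 (adjusted p = 0.0959) or WT macrophage replicate 4 (adjusted p = 0.0793).

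In CebpbΔM mice, 6 of the 9 genes were lower in macrophage than in MEC libraries and 1 was higher, where 14.7% of tested genes were called lower and 18.9% higher. Aldh1a3 was 12.8-fold lower (-3.67 ± 0.21, adjusted p = 5.66e-07), Ltf 7.96-fold lower (-2.99 ± 0.76, adjusted p = 0.0107) and Lcn2 7.03-fold lower (-2.81 ± 0.44, adjusted p = 0.000599). Sox9 was 4.86-fold, Elf3 4.08-fold and Tfcp2l1 2.41-fold lower (adjusted p = 0.000144, 5.73e-05 and 0.00489). Cd14 was 2.83-fold higher (95% interval 1.88 to 4.28, adjusted p = 0.0015). Kit at 0.05 ± 0.36 (adjusted p = 0.937) and Ehf at 0.36 ± 0.49 (adjusted p = 0.605) overlapped between the cell types, and the other 7 did not (52.9% of all tested genes). The call of Ltf was lost without CebpbΔM MEC replicate 1 (-1.62, adjusted p = 0.239), and it was -3.69 without CebpbΔM MEC replicate 3 and -3.78 without CebpbΔM macrophage replicate 7. Without CebpbΔM MEC replicate 1 the log2 fold change of Lcn2 was -2.11 and that of Cd14 was 2.09, both still called. These comparisons use the same libraries as the genotype comparisons and the difference between the 2 genotypes is the one tested above.

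The epithelial marker genes give the scale on which these differences stand. In WT mice 9 of 10 were called lower in macrophage libraries (Esrp1 was not), with log2 fold changes of the 10 between -2.72 and -0.34 (median -1.77), and in CebpbΔM mice 10 of 10, between -4.06 and -0.92 (median -2.41). In WT mice the values of Aldh1a3, Lcn2 and Ltf were below that range and that of Elf3 within it. Those of Sox9, Kit, Ehf and Tfcp2l1 were within it and nearer to 0 than its median. In CebpbΔM mice those of Kit and Ehf lay above the range and the others, apart from Cd14, within it. All 10 macrophage marker genes were called higher, with medians of 8.10 and 9.06. Some of them were near the floor in MECs (Adgre1 and Itgam at 0 counts in both CebpbΔM MEC libraries), so the size of the largest values is not firm. The epithelial genes were not tested against the 9 genes.

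**Figure D4:**
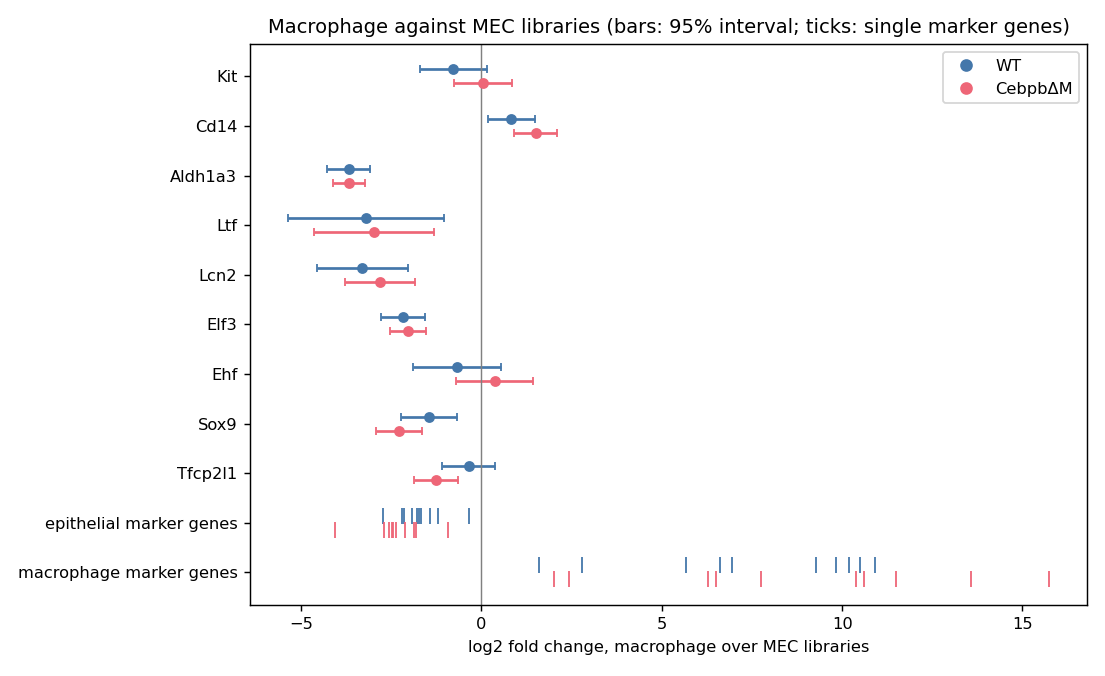
Log2 fold change of macrophage over MEC libraries for each of the 9 genes, with 95% intervals, in WT (blue) and CebpbΔM (red) mice, and ticks in the lowest rows are the 10 epithelial and 10 macrophage marker genes, each a single gene. Aldh1a3, Ltf and Lcn2 lie between -3.68 and -2.81, Kit and Ehf between -0.78 and 0.36, Cd14 above 0, and the macrophage markers between 1.59 and 15.7. The size of the largest marker values is not firm, because Adgre1 and Itgam were at 0 counts in both CebpbΔM MEC libraries.

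The pathway partners of the 9 genes were taken from lists of 63 genes in all. Between genotypes, 0 of the 59 partners tested in MECs and 0 of the 61 tested in macrophages were called by the quasi-likelihood test. At an unadjusted p under 0.05 there were 7 and 6 (5.42% and 8.63% of all tested genes), the likelihood ratio test called 1 in each cell type and DESeq2 called 2 in each. These were Gabrp and Sh2b3 in MECs and Trf and Aldh1a2 in macrophages, named here after their values were seen, with Gabrp and Aldh1a2 called by both tools. The log2 fold change of Gabrp in MECs was -1.59, and -0.92 without WT MEC replicate 3, and Gabrp was called without WT MEC replicate 1 or CebpbΔM MEC replicate 1 (adjusted p of 0.00211 and 0.0470). That of Aldh1a2 in macrophages was 2.62, between 1.88 without WT replicate 4 and 4.21 without WT replicate 5, and 1.12 with the epithelial marker level in the fit. The median log2 fold changes of the lists in MECs were -0.02 for the 12 KIT signalling genes, -0.15 for the 9 tested CD14 and TLR4 genes, -0.07 for the 12 tested retinoic acid genes, 0.12 for the 7 tested iron-binding genes and 0.08 for 12 other luminal and alveolar progenitor genes.

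The ligand of KIT, stem cell factor (Kitl), was at 126 and 125 CPM in WT MECs, 126 and 170 CPM in CebpbΔM MECs, and 167 to 248 CPM in macrophage libraries. It was called higher in WT macrophage than in WT MEC libraries (log2 fold change 0.79 ± 0.23, SE, adjusted p = 0.0293), a call lost without WT MEC replicate 1 or 3 or WT macrophage replicate 5 (adjusted p between 0.123 and 0.148). Of the 12 KIT signalling genes 5 were called higher and 0 lower in macrophage libraries of WT mice (14.8% and 10.7% of all tested genes). They were Kitl, Gab2 (log2 fold change 1.37), Ptpn6 (2.07), Lyn (1.23) and Sh2b3 (2.30). In CebpbΔM mice 5 were also called higher (18.9% of all tested genes), with Grb2 (1.12) and without Kitl (0.52, adjusted p = 0.0759). The others were Gab2 (1.35), Ptpn6 (2.04), Lyn (1.68) and Sh2b3 (1.55). The call of Gab2 was lost without either MEC library of the genotype and, in WT, without macrophage replicate 5 (adjusted p between 0.0584 and 0.208). Of the 10 CD14 and TLR4 receptor genes 1 was called between the cell types of WT mice, against 25.5% of all tested genes. This was Ticam2, the adaptor of the endosomal TLR4 pathway, which was counted 4 times and 1 time in WT MECs and 363 and 189 times in WT macrophages (adjusted p = 6.07e-05). With MEC counts this near to the floor of 3 no fold is given, and the fitted log2 fold change lay between 6.34 and 8.19 with 1 library left out. In CebpbΔM mice 4 of 10 were called higher (18.9% of all tested genes). They were Ticam2, Tlr4 at 2.70-fold (1.44 ± 0.24, adjusted p = 0.00092), the related receptor gene Tlr2 (1.43) and the TLR4-bound Ly96 (0.74, adjusted p = 0.0459). The call of Ly96 was lost without either CebpbΔM MEC library and also with RLE scaling (adjusted p = 0.0570).

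Of the 13 tested retinoic acid partners of Aldh1a3, none had a log2 fold change below -1.78 in WT mice. There 1 was called higher (Dhrs3) and 2 lower (Rdh10 and Rarg), against 14.8% and 10.7% of all tested genes. Rdh10, which makes the retinaldehyde that ALDH1A3 oxidizes, was 2.86-fold lower in WT macrophage libraries (-1.52 ± 0.27, adjusted p = 0.00227) and Dhrs3, which reverses that step, 3.42-fold higher (1.77 ± 0.42, adjusted p = 0.0102), the latter lost without WT MEC replicate 3 or WT macrophage replicate 5 (adjusted p of 0.0934 and 0.0588). The receptor gene Rarg was at -0.74 (adjusted p = 0.0475), which was lost without 8 of the 10 libraries, the exceptions being replicate 3 of WT and of CebpbΔM MECs (adjusted p between 0.0501 and 0.331). In CebpbΔM mice Rdh10 was called lower (-1.19) and 4 were called higher, Aldh1a2, Dhrs3 (1.74), Rarb (2.09) and Rxra (0.92). Of all tested genes 14.7% were called lower and 18.9% higher there. Aldh1a2, the retinaldehyde dehydrogenase of stromal and myeloid cells, was 20.3-fold higher in macrophage than in MEC libraries of CebpbΔM mice (4.34 ± 0.73, adjusted p = 0.000938). Among iron-binding partners, ferritin light chain Ftl1 was 3.21-fold higher in WT macrophage libraries (1.68 ± 0.24, adjusted p = 0.000525), and the iron exporter Slc40a1 was also called higher (1.32, adjusted p = 0.00314). Both were called higher in CebpbΔM mice as well (2.19 and 1.75). Transferrin, Trf, was at 1200 and 1529 CPM in WT and 1887 to 2815 CPM in CebpbΔM macrophages, without overlap (0.87 ± 0.21, adjusted p = 0.452). Sox10, the SoxE relative of Sox9, was 3.86-fold lower in WT macrophage libraries (-1.95 ± 0.50, adjusted p = 0.016), which was lost without WT MEC replicate 1 or 3 or WT macrophage replicate 4 (adjusted p between 0.0525 and 0.0964). The ETS, grainyhead and CP2 relatives of Elf3, Ehf and Tfcp2l1 held 0 called genes of 7 in WT mice (25.5% of all tested genes). In CebpbΔM mice 2 of the 7 were called lower (14.7% of all tested genes), Spdef (-1.63) and Grhl1 (-0.90), and Sox10 was called lower there too (-1.57).

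Other luminal and alveolar progenitor genes behaved in part like the 9. The shares of all tested genes called lower were 10.7% in WT and 14.7% in CebpbΔM mice. In WT mice 5 of 12 were called lower in macrophage libraries, namely Csn3 (-2.29), Basp1 (-2.45), Plet1 at 13.2-fold (-3.73 ± 0.61, adjusted p = 0.00122), Wfdc18 at 10.3-fold (-3.36 ± 0.72, adjusted p = 0.00623, and 0.0541 without WT macrophage replicate 5) and Mfge8, a milk fat globule protein, at 3.72-fold (-1.90 ± 0.32, adjusted p = 0.00142). The call of Csn3, the kappa-casein gene, was lost without any of the 4 WT libraries (adjusted p between 0.0719 and 0.172). In CebpbΔM mice 7 of 12 were called lower, Plet1 (-3.07, and -2.31 without CebpbΔM MEC replicate 1), Krt15 (-2.87), Wfdc18 (-2.76), Csn3 (-2.32), Basp1 (-2.21), Lurap1l (-1.54) and Mfge8 (-1.53). Among the partners called in CebpbΔM mice, the calls of Csn3, Krt15, Lurap1l, Rarb, Rxra, Sox10, Spdef and Grhl1 were lost without CebpbΔM MEC replicate 1 (adjusted p between 0.0505 and 0.215) and those of Dhrs3, Krt15 and Rarb without CebpbΔM MEC replicate 3 (adjusted p between 0.0627 and 0.154). Krt15, Ly96 and Rarb were also lost without 1 or more of the other libraries (adjusted p between 0.0564 and 0.0953).

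The 9 genes were not alike in their pattern over the 10 libraries. Likeness was measured as the root mean square difference of centred log2 CPM, as a description over libraries that share their cell type. The closest pairs were Kit and Ehf (0.354) and Elf3 and Sox9 (0.365), then Lcn2 and Elf3 (0.601) and Aldh1a3 and Lcn2 (0.646). Among 18283 other genes, the nearest to Cd14 was Lgals3bp (0.146), the nearest to Tfcp2l1 was Slc44a4 (0.162) and the nearest to Elf3 was Lgi4 (0.168). Slc44a4 was at 99.1 and 84.9 CPM in WT macrophages and at 24.2, 38.3, 35.4 and 73.7 CPM in CebpbΔM macrophages, a pattern that its choice as the nearest gene fixes. The nearest to Sox9 was C1qtnf4 (0.230), to Ehf BC006965 (0.284), to Aldh1a3 Gm6394 (0.295), to Kit Rexo5 (0.297) and to Lcn2 Plet1 (0.303), a surface protein of the progenitor list. Gm6394 was at 0 counts in 4 of the 6 macrophage libraries. Ltf had no close neighbour. Its nearest gene was Snorc (0.535), and 0 genes were within 0.5, against 21 for Lcn2, 25 for Aldh1a3 and 1118 for Kit. The difference is not scaled to a gene's own spread, so these counts are not on a common scale. Its median over all genes searched was 1.91 for Ltf, 1.65 for Lcn2, 1.89 for Aldh1a3, 0.747 for Kit and 0.813 for Ehf.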

How the data were processed

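RNA from MECs and macrophages was made into libraries with a low-input Smart-Seq kit and sequenced in paired ends. The authors trimmed reads with Trimmomatic, aligned them to GRCm38 with HISAT2 and deposited raw counts per gene from featureCounts 1.6.2 (Ensembl release 100, mapping quality of at least 10, reverse-strand setting 2). Reads that map to several genes or lie in an overlap can be lost from these counts. The counts were tested as deposited with edgeR 4.0.16 (R 4.3.3), after removing genes under 300 nt and keeping those above 1 CPM in at least 2 libraries of a fit, with TMM scaling, the quasi-likelihood test and an adjusted p of 0.05. Each genotype comparison used its own cell type, and the others all 10 libraries. Fold changes are on the log2 scale; SEs derive from the F statistic. Levels in CPM use TMM factors over all 10 libraries. DESeq2 1.42.0 and edgeR's likelihood ratio test, which the study used, were alternatives, with RLE scaling, no filter, a replicate block, an epithelial covariate and each library left out. All 9 genes are named; partners are named where called in a cell type comparison or among the 4 highest of their list in the cell type described, and where another tool called them, marker genes beside the genes they bear on, and the gene of nearest pattern for each of the 9. The genes and lists were chosen with earlier results of these data known. The fit was also run on simulated data with known changes. Their recovery is not given here, so nothing about power is drawn from them. Promoter sequences are from RefSeq.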

Additional observations from a re-analysis of the deposited data

How the results depend on the processing

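Counts of called genes moved with the test. In MECs 8 genes were called by the quasi-likelihood test, 179 by the likelihood ratio test, 161 by DESeq2, 67 without the filter, 0 in the fit of all 10 libraries, and 2 to 337 with 1 library left out (42 and 337 without CebpbΔM replicate 1 and 3, 98 and 2 without WT replicate 1 and 3). In macrophages 0 became 138 and 201 by the same 2 tools, and for the difference between cell types 0 became 53 and 28, and 0 to 1 with 1 library left out (1 without WT MEC replicate 3). The cell type counts were 2456 to 4846 in WT and 3496 to 6556 in CebpbΔM mice with 1 library left out (2733, 2456 and 3041 without WT MEC replicate 1 or 3 or WT macrophage replicate 5, and 3496 without CebpbΔM MEC replicate 1). Leaving out a MEC library or a WT macrophage library leaves an arm of 1 library, assumed to vary like the others. The cause was not tested. Replicate numbers are shared between groups, but the labels do not say that they pair mice, and deviations of same-numbered libraries correlated by 0.105 in MECs and by 0.127 and -0.0861 in macrophages. With a replicate block 205 genes were called in MECs, 12 in macrophages and 1 for the difference, with none of the 9 among them (Gabrp was called in MECs, adjusted p = 0.0380). Lcn2 was then -0.050 in MECs, Kit 0.32 and Ltf -1.48 in macrophages, and Aldh1a3 0.017 and Ltf 1.16 for the difference. Other values that changed sign were not called in any setting. With only replicates 4 and 5 in macrophages Kit was 0.33, Ltf -1.49 and Elf3 0.0066, with the epithelial covariate 0.66, -1.24 and 0.054, and Kit was 0.011 in the fit of all 10 libraries. The difference for Aldh1a3 was 0.012 without the filter. With 1 library left out, the ranges were -0.30 to 0.061 (Aldh1a3), -0.75 to 0.21 (Cd14), -1.38 to 0.63 (Ltf), -0.63 to 0.49 (Lcn2) and -0.52 to 0.12 (Elf3) in MECs. In macrophages they were -0.30 to 0.34 (Kit), -0.38 to 0.14 (Aldh1a3), -0.67 to 0.54 (Ltf), -0.15 to 0.048 (Elf3) and -0.19 to 0.59 (Ehf). For the difference they were -0.25 to 0.27 (Aldh1a3), -1.59 to 0.62 (Ltf) and -0.53 to 0.16 (Elf3), and between cell types of CebpbΔM mice -0.40 to 0.69 (Kit) and -0.14 to 0.65 (Ehf). Groups of 2 libraries limit every test of genotype in MECs.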
